A study of Homo sapiens with 16 samples.

Results

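The VEGF genes examined here encode the secreted growth factors VEGFA, VEGFB, VEGFC and PGF, their receptor tyrosine kinases FLT1 and KDR, and the co-receptors NRP1 and NRP2. They were taken by gene symbol from both deposited expression tables. Of the 8 symbols, 7 were measured in both tables, among 17318 human genes in the first and 18168 in the second. FLT1 was absent from both. The tumours were grown orthotopically in nude mice from U87, an established human glioblastoma line that carried luciferase, and the labels give its genotype as WT. All mice received exosomes of mesenchymal stromal cells (MSC), so no group was free of exosome injection. The first experiment set 3 tumours of mice whose exosomes carried human anti-Myc siRNA 1 (Myc1) beside 4 whose exosomes carried scramble siRNA 1 (Scr1). For the second experiment, 5 tumours are labelled with anti-Myc siRNA 2 (Myc2) and 4 with scramble siRNA 2 (Scr2). Every tumour was collected when its mouse met the conditions for euthanasia, from 1 mouse each, so survival time is not held equal between tumours. In the first experiment injections into the retro-orbital sinus began at day 28 after implantation and were given every other day in 100 µl. The schedule of the second is not given in the sources used here.

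VEGF ligands are secreted proteins through which tissue short of oxygen recruits blood vessels. VEGFA is a direct target of the hypoxia-inducible factors and signals through KDR (VEGF receptor 2), the main driver of endothelial growth and permeability, while FLT1 binds VEGFA, VEGFB and PGF. NRP1 and NRP2 bind both VEGF ligands and class 3 semaphorins and pass signals on with partner receptors. Glioblastoma is known for dense abnormal vessels and for strong VEGFA expression beside necrosis. The vessels of a xenograft come largely from the host, so transcripts of human origin mainly come from the implanted cells. How mouse reads were handled is not given in the sources used here, and a share of host reads in the values was not tested.

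Values are log2 counts per M reads (CPM) that were normalized to a common distribution within each table, and levels were therefore set side by side only within a table. Estimated depths ran from 15.2 to 29.5 M reads, except for Scr1 replicate 3 at 3.35 M and Scr2 replicate 4 at 10.5 M. On the first principal component Scr2 replicates 1 and 4 lay at -63.4 and -94.4, while the other 7 libraries of that table lay between 2.74 and 47.6. MYC, the siRNA target, stood at 38.1, 26.5 and 14.3 CPM in Myc1 and at 21.2, 30.2, 50.7 and 108 CPM in Scr1. The groups overlapped (log2 difference -0.83 ± 0.54 SE, exact permutation p = 0.314). In the second experiment MYC stood at 55.3, 57.5, 47.0, 72.1 and 42.3 CPM in the libraries labelled Myc2 and at 40.2, 35.3, 47.1 and 25.9 CPM in Scr2. MYC was higher in the libraries labelled Myc2 by 0.57 ± 0.21 (SE, exact permutation p = 0.0397), which goes against that label, and every direction given for them carries this limit. The groups overlapped, and the lowest MYC value was in Scr2 replicate 4. The p adjusted over all genes by limma, described below, was 0.370. The U87 markers VIM, CD44, CHI3L1, FN1, TIMP1, NES and EGFR were all measured, with summed levels of 8622 to 11049 CPM in the first table and 5586 to 10662 CPM in the second.

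No VEGF gene passed the threshold of 0.05 on the adjusted p of limma, a linear model fitted to all genes, in either experiment. VEGFA was the one with a large difference: its mean was 6.96-fold higher (95% interval 2.77 to 17.5) in the 5 tumours labelled Myc2 than in the 4 Scr2 tumours. The other ligands, KDR and the neuropilins differed by less than 0.50 on the log2 scale in that experiment. In the first experiment KDR had the largest difference, at very low levels, and VEGFA differed by -0.07. Over all genes, 0 of 13933 tested (0%) were called for siRNA 1 and 0 of 14208 (0%) for siRNA 2, so 0 of 7 is also the share of the background. At an unadjusted limma p under 0.05 the VEGF genes held 0 of 7 for siRNA 1, against 3.48% of all genes, and 1 of 7 for siRNA 2, against 13.4%. In neither experiment did any of the 7 have groups that did not overlap, where all genes gave 4.21% for siRNA 1 and 3.01% for siRNA 2. Their median difference was -0.02 for siRNA 1 and 0.28 for siRNA 2, beside medians over all genes of -0.00283 and -0.0183.

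**Figure D1:**
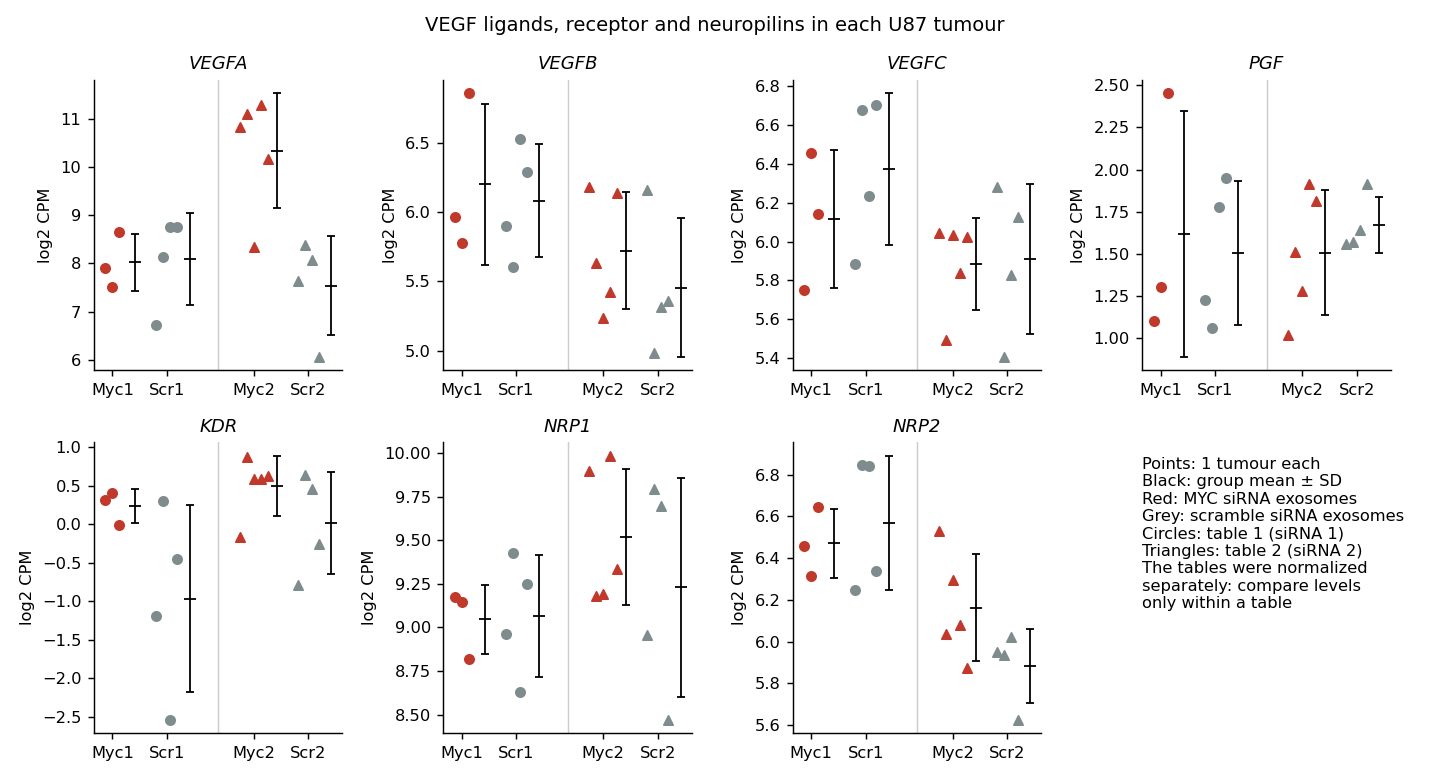
Level of the 7 measured VEGF genes in each tumour (vertical axis, log2 CPM), with 1 panel per gene and 1 point per tumour, and black bars for the group mean ± SD. VEGFA in the second table spreads over 37.2-fold, and 4 of the 5 tumours labelled Myc2, all but replicate 3, lie above all 4 Scr2 tumours. For NRP2, over a 1.87-fold range, a different 4 do so, all but replicate 5. The groups of all 7 genes overlap in both tables.

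VEGFA, the main angiogenic ligand, was read at 1807, 2175, 324, 2484 and 1139 CPM in replicates 1 to 5 labelled Myc2. Scr2 replicates 1 to 4 stood at 199, 335, 267 and 66.7 CPM. Thus 4 tumours labelled Myc2 lay above every Scr2 tumour, and replicate 3 lay just below the highest Scr2 tumour, which is the whole overlap. On the log2 scale the means were 10.34 ± 1.19 (SD, n = 5) and 7.54 ± 1.03 (SD, n = 4), a difference of 2.80 ± 0.61 (SE; 95% interval 1.47 to 4.13). The exact two-sided permutation p over 126 arrangements was 0.0238, the unadjusted limma p was 0.000671, and the limma p adjusted over all genes was 0.370. The lowest VEGFA value was in Scr2 replicate 4, the shallowest library of the table and 1 of the 2 that stood apart. Without Scr2 replicates 1 and 4 the difference was 2.11 (95% interval 0.37 to 3.85, limma adjusted p = 0.999). Without replicate 3 labelled Myc2 it was 3.30, and the limma adjusted p was 0.0436, the only one under 0.05 among 18 alternatives, over which it ranged up to 0.999.

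In the first experiment VEGFA stood at 238, 182 and 404 CPM in Myc1 and at 105, 280.0, 432 and 432 CPM in Scr1. All 3 Myc1 tumours lay inside the Scr1 range. The means were 8.02 ± 0.58 (SD, n = 3) and 8.09 ± 0.96 (SD, n = 4) log2 CPM, a difference of -0.07 ± 0.51 (SE; 95% interval -1.25 to 1.11; exact permutation p = 0.857, smallest possible 0.0286). That interval does not show equal levels. Scr1 replicates 3 and 4 share 1 value because genes of the same rank receive the same value in quantile normalization.

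VEGFA differed more between tumours than most genes of its level. In the first table its highest value was 4.10 times its lowest, and 0.986% of the 1217 genes within 1 log2 unit of its mean had a larger range. In the second table the ratio was 37.2, and 0.235% of 425 such genes had a larger range. Part of that range is the difference between groups, so the spread inside groups was taken as well: 0.247% of those genes in the first table and 0.706% in the second had a larger within-group SD than VEGFA. VEGFA therefore varied strongly between tumours of 1 group in both experiments.

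**Figure D2:**
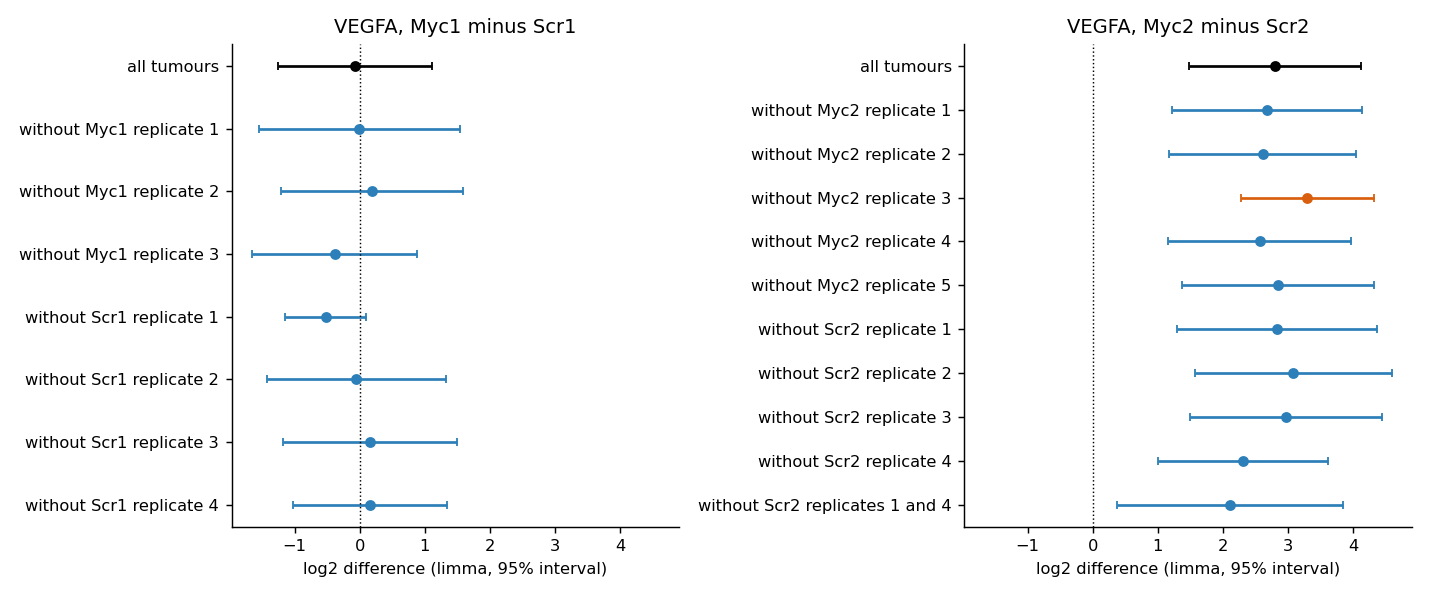
VEGFA difference, MYC siRNA minus scramble (horizontal axis, log2, with limma 95% intervals), with all tumours in black and with tumours left out as named on the vertical axis. For Myc1 minus Scr1 the value runs from -0.52 to 0.19 on both sides of 0, and for the tumours labelled Myc2 minus Scr2 from 2.11 to 3.30, with the 1 fit under an adjusted p of 0.05 in orange.

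VEGFB, a ligand of FLT1 and NRP1 with weak angiogenic activity, stood at 62.3, 54.8 and 116 CPM in Myc1 and at 59.8, 48.7, 92.0 and 78.4 CPM in Scr1. The highest value was a Myc1 tumour and the lowest a Scr1 tumour, with the rest intermixed. In the second table it was 72.5, 49.6, 37.8, 42.9 and 70.4 CPM in the libraries labelled Myc2 and 71.6, 31.7, 39.8 and 41.1 CPM in Scr2. Each group there held both high and low tumours. The differences were 0.12 ± 0.29 (SE; 95% interval -0.51 to 0.74; exact permutation p = 0.743) and 0.27 ± 0.27 (SE; 95% interval -0.33 to 0.86; exact permutation p = 0.397).

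VEGFC, the ligand best known for lymphatic vessel growth, stood at 53.7, 87.8 and 70.7 CPM in Myc1 and at 59.0, 102, 75.2 and 104 CPM in Scr1. The 2 highest tumours were Scr1 and the lowest was Myc1, with overlap between them. The second table gave VEGFC values in the libraries labelled Myc2 of 65.9, 45.0, 65.5, 57.2 and 65.1 CPM and in Scr2 of 77.9, 42.4, 56.8 and 69.8 CPM. Scr2 held both the highest and the lowest tumour. The differences were -0.26 ± 0.26 (SE; 95% interval -0.81 to 0.29; exact permutation p = 0.457) and -0.02 ± 0.20 (SE; 95% interval -0.47 to 0.42; exact permutation p = 0.897). VEGFC had the narrowest spread of the ligands in both tables, 1.94-fold and 1.84-fold from lowest to highest.

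PGF, placental growth factor, which binds FLT1 and not KDR, was far lower. It stood at 2.14, 2.47 and 5.48 CPM in Myc1 and at 2.35, 2.09, 3.44 and 3.87 CPM in Scr1. Myc1 replicate 3 was the highest of the 7, and the other 6 were intermixed. In the second table it was 2.03, 2.85, 2.43, 3.77 and 3.51 CPM in the libraries labelled Myc2 and 2.95, 2.97, 3.13 and 3.77 CPM in Scr2. The 4 Scr2 tumours lay inside the range of those labelled Myc2. The differences were 0.11 ± 0.43 (SE; 95% interval -0.82 to 1.05; exact permutation p = 0.8) and -0.16 ± 0.28 (SE; 95% interval -0.78 to 0.45; exact permutation p = 0.405). These levels rest on an estimated 11 to 124 reads per library in the first table and 37 to 81 in the second.

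KDR, the signalling receptor for VEGFA, was near the lower limit of detection. It stood at 1.24, 1.32 and 0.99 CPM in Myc1 and at 0.44, 1.23, 0.17 and 0.73 CPM in Scr1. The Scr1 tumour at 1.23 CPM reached into the Myc1 range and the other 3 lay below it. The lowest, Scr1 replicate 3, is the shallowest library, and its KDR value corresponds to 0 reads. The difference was 1.20 ± 0.68 (SE; 95% interval -0.26 to 2.67; exact permutation p = 0.143, limma adjusted p = 0.996), and it was 0.68 without that library and 0.45 on the log2(CPM + 1) scale. In the second table KDR was 0.89, 1.82, 1.5, 1.49 and 1.54 CPM in the libraries labelled Myc2 and 0.58, 1.56, 1.37 and 0.84 CPM in Scr2. The lowest 2 were Scr2 replicates 1 and 4, the libraries that stood apart. The difference was 0.49 ± 0.40 (SE; 95% interval -0.40 to 1.37; exact permutation p = 0.198), and without both of them it was -0.0495. Estimated reads behind these values ran from 0 to 29 per library in the first table and from 8 to 40 in the second.

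Because KDR marks endothelial cells, endothelial markers were read beside it under their human symbols. A share of host reads in KDR or in these markers was not tested. Of 14 markers, 7 were measured in the first table, summing to 12.3 to 26.8 CPM in Myc1 and 7.24 to 16.4 CPM in Scr1. In the second, 8 of 14 were measured and summed to 14.7 to 59.4 CPM in the libraries labelled Myc2 and 12.6 to 30.4 CPM in Scr2. ERG, an endothelial transcription factor, stayed under 1 CPM in all 16 tumours. TIE1, an endothelial receptor kinase, stayed under 1 CPM in the first table but was the highest marker of the second, at 3.02 to 43.1 CPM in the libraries labelled Myc2 and 0.25 to 20.3 CPM in Scr2 (difference 2.09 ± 1.09 SE, limma adjusted p = 0.377). CDH5, the endothelial cadherin, was 0.71 to 6.49 CPM in the libraries labelled Myc2 and 0.12 to 2.55 CPM in Scr2, a difference of 2.28 ± 0.91 (SE, limma adjusted p = 0.370). Of the 6 markers tested in the second table, 4 were above 0 and 2 below, with a median of 0.19, against 48.2% of all genes above 0. At an unadjusted limma p under 0.05, 1 was higher and 0 lower, against 13.4% of all genes in either direction. Without Scr2 replicates 1 and 4, TIE1 differed there by 2.33, CDH5 by 1.92, EMCN by -0.34 and ROBO4 by -0.40. EMCN, a sialomucin of venous and capillary endothelium, was 6.72 to 22.2 CPM in Myc1 and 1.25 to 5.20 CPM in Scr1. ROBO4, an endothelial guidance receptor, was in the opposite order, at 1.83 to 2.58 CPM in Myc1 and 2.87 to 7.37 CPM in Scr1. These were the only 2 of the 7 measured markers tested in the first table. The groups of both did not overlap, against 4.21% of all genes. At an unadjusted limma p under 0.05, 1 was higher and 1 lower, against 3.48% of all genes in either direction. The part of such markers in the KDR values was not tested, and in bulk tumours fewer cells of a type cannot be told apart from less RNA per cell.

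**Figure D3:**
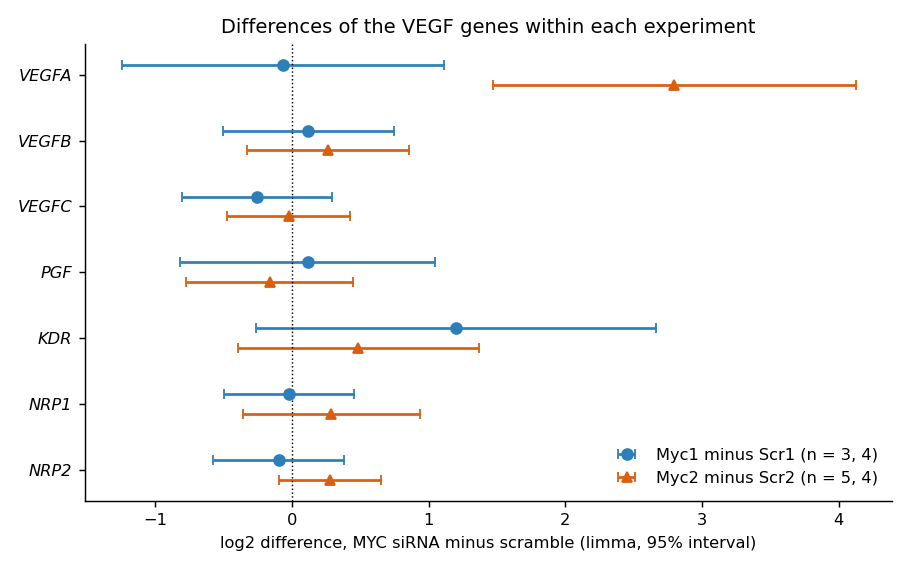
Difference of each VEGF gene (vertical axis) between MYC siRNA and scramble tumours (horizontal axis, log2, points with limma 95% intervals), circles for Myc1 minus Scr1 and triangles for the tumours labelled Myc2 minus Scr2. Of the 14 intervals, only that of VEGFA in the second experiment, from 1.47 to 4.13, leaves out 0, and the widest of the rest belongs to KDR in the first, from -0.26 to 2.67.

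NRP1, the co-receptor for VEGFA and for SEMA3A, was among the more abundant of these transcripts. It stood at 577, 566 and 452 CPM in Myc1 and at 498, 688, 396 and 609 CPM in Scr1. The Myc1 tumours lay inside the Scr1 range. The second table put it at 952, 580.4, 585, 1013 and 646 CPM in the libraries labelled Myc2 and 497, 886, 829.5 and 355 CPM in Scr2. The 2 highest were labelled Myc2 and the 2 lowest were Scr2 replicates 1 and 4. The differences were -0.02 ± 0.22 (SE; 95% interval -0.50 to 0.45; exact permutation p = 0.943) and 0.29 ± 0.30 (SE; 95% interval -0.36 to 0.94; exact permutation p = 0.421). Without Scr2 replicates 1 and 4 the second turned to -0.23.

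NRP2, the co-receptor for VEGFC and SEMA3F, stood at 87.9, 79.5 and 99.99 CPM in Myc1 and at 75.9, 115, 115 and 81.0 CPM in Scr1. Scr1 held both ends of the range. In the second table it was 92.4, 65.7, 78.6, 67.7 and 58.6 CPM in the libraries labelled Myc2 and 61.9, 61.3, 65.1 and 49.4 CPM in Scr2. There 4 of the 5 tumours labelled Myc2 lay above all 4 Scr2 tumours, and replicate 5 lay below 3 of them. The differences were -0.10 ± 0.22 (SE; 95% interval -0.58 to 0.38; exact permutation p = 0.629) and 0.28 ± 0.17 (SE; 95% interval -0.10 to 0.65; exact permutation p = 0.143).

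The effects in the 2 experiments were compared with a contrast of the within-table differences over the 13656 genes tested in both. Each siRNA was used in 1 experiment only, so siRNA and experiment cannot be told apart. For VEGFA the effect was 2.87 ± 0.91 larger in the second experiment (SE; 95% interval 0.94 to 4.79). Its exact permutation p was 0.0254 over 4410 arrangements within the tables, and its limma adjusted p was 0.528. Those arrangements assume no effect in either experiment rather than equal effects. For the other 6 genes the difference between effects lay between -0.72 for KDR and 0.38 for NRP2, with exact permutation p from 0.151 to 0.751. No gene of the 13656 was called (0%), and 8.75% had an unadjusted limma p under 0.05. Of the further family members, FIGF, which encodes VEGF-D, stood at 0.0984 to 0.694 CPM in the first table, below the filter on low values. FIGF was absent from the second table, and FLT4, the VEGFC receptor, was absent from both.

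Levels of different genes can be compared only per length of transcript. With the length of the longest principal transcript in GENCODE 29, the geometric mean of VEGFA was 217 CPM per kb in Myc1, 227 in Scr1, 1078 in the libraries labelled Myc2 and 155 in Scr2. NRP1 followed at 89.9, 91.2, 125 and 102 CPM per kb. VEGFB (31.8 to 53.2), VEGFC (28.7 to 40.2) and NRP2 (8.87 to 14.3) came next, with PGF at 1.47 to 1.65 and KDR at 0.0843 to 0.233 CPM per kb. For VEGFA the transcript length used was 1199 bases, while all its annotated exons cover 14431 bases. With the length of all annotated exons instead, VEGFA was 18.0, 18.9, 89.6 and 12.9 CPM per kb and NRP1 45.9, 46.6, 63.6 and 52.1. VEGFB was then 47.5, 43.8, 34.2 and 28.4 CPM per kb and VEGFC 28.7, 34.3, 24.4 and 24.9. VEGFA was thus highest under both lengths in the tumours labelled Myc2, but in Myc1, Scr1 and Scr2 it went from highest to below NRP1, VEGFB and VEGFC. VEGFB also passed NRP1 in Myc1, so the order of these genes depended on the length used, while PGF and KDR were the lowest under both.

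Since VEGFA is a textbook hypoxia target, each VEGF gene was set beside a list of 24 measured hypoxia targets across the tumours of a table. These correlations describe tumours that share library, depth and group structure, and carry no test. VEGFA had a median Pearson r of 0.53 over 7 tumours, with 20 of 24 targets above 0, and of 0.88 over 9 tumours, with 23 of 24 above 0. The closest targets were PFKFB4, a glycolytic regulator, at 0.76 in the first table and HK2, a hexokinase, at 0.97 in the second. With group means removed and the groups of a table pooled, the medians were 0.55 and 0.77. The relation therefore did not rest on the difference between group means alone. It was not taken inside any single group, nor without the Scr2 libraries that stood apart. Median r of VEGFA with all genes was -0.0278 and -0.0533.

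VEGFB had medians of 0.44 and 0.49 with the hypoxia targets, and NRP2 0.31 and 0.36. VEGFC had 0.04 and -0.21. PGF differed between the tables, with 0.56 in the first, where ADM reached 0.98, and -0.10 in the second. NRP1 was at -0.22 and 0.40, and KDR at 0.20 and 0.15. With group means removed, NRP2 in the second table was at -0.00747 and KDR at -0.18, while VEGFB was at 0.44 and 0.43.

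**Figure D4:**
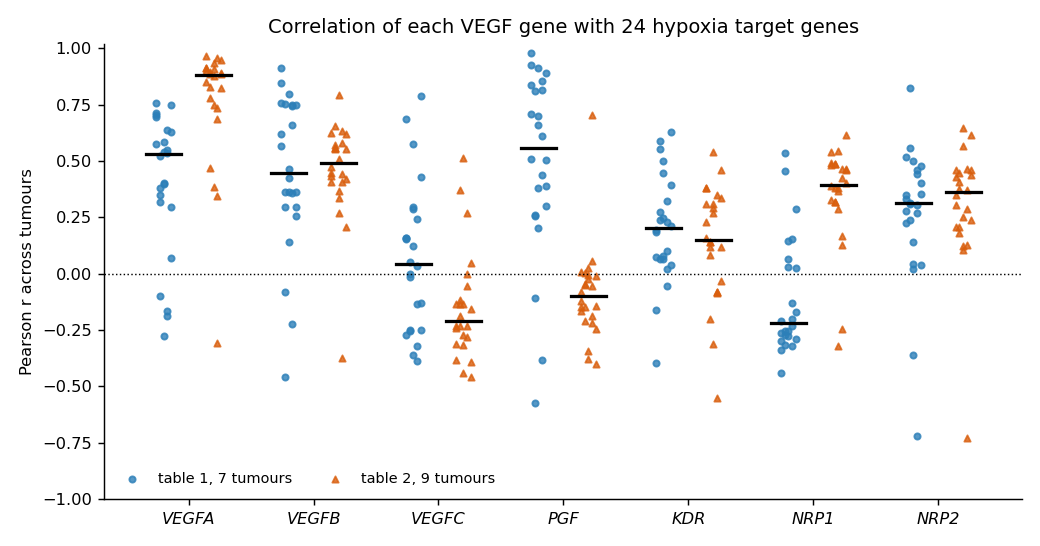
Pearson r across tumours (vertical axis) of each VEGF gene with each of 24 hypoxia targets, blue circles for the 7 tumours of the first table, orange triangles for the 9 of the second, and black lines at the medians. VEGFA in the second table has its median at 0.88 with 23 of 24 targets above 0, and VEGFC there has its median at -0.21.

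VEGFB and VEGFC differed in this relation, so their promoter windows are shown, taken from RefSeq (GRCh38.p14) as the 250 bases before the annotated start. Both strands were searched for the hypoxia response core ACGTG or GCGTG, and for the E-box CACGTG, a MYC-binding motif that contains ACGTG. Capitals mark the core match.
VEGFB: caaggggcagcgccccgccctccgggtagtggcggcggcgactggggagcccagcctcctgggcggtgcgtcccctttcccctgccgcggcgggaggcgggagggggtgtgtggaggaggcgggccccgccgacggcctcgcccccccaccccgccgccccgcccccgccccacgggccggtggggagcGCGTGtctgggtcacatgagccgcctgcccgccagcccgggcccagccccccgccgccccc
VEGFC: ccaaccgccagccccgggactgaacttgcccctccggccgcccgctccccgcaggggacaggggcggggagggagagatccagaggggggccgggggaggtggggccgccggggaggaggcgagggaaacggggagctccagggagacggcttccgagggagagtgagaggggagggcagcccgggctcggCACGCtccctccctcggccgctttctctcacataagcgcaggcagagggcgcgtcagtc
The VEGFB window is chr11:64234334-64234583 on the plus strand and its core starts at -61 from the start of the gene. The VEGFC window is chr4:176792923-176793172 on the minus strand, and its core, at -59, is printed as CACGC because GCGTG lies on the other strand. Each window thus held 1 core, in genes whose correlations with the hypoxia targets differed. Among 35116 promoter windows of this length 43.2% held a core and 6.34% an E-box. PGF had 2 windows, 1 of them with a core, and KDR and NRP2 had none. No E-box was found in the windows of these 5 genes. VEGFA and NRP1 had no window in the source used, so their promoters were not searched. A match is a description of letters and not of a bound site.

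None of the hypoxia targets was called by limma in either experiment. For siRNA 2, 23 of 24 tested had a difference above 0 in the tumours labelled Myc2, against 48.2% of all genes, and their median difference was 1.04 log2. At an unadjusted limma p under 0.05 there were 16, all of them higher, against 13.4% of all genes in either direction. These shares, and those of 49.5% and 3.48% for siRNA 1, are the background for each list that follows in the fits of all tumours. In those fits 0 genes of any list were called. Without Scr2 replicates 1 and 4, 6741 of 14639 genes were above 0 and 509 had an unadjusted limma p under 0.05. Without Scr1 replicate 3 these counts were 6739 and 955 of 13794. DDIT4, an inhibitor of mTOR signalling, was 396 to 893 CPM in the libraries labelled Myc2 and 157 to 376 CPM in Scr2 (1.42 ± 0.29 SE). KDM3A, a histone demethylase, differed by 1.07 ± 0.26 and HK2 by 1.88 ± 0.44 (SE), all with a limma adjusted p of 0.370. DDIT4 and KDM3A were the 2 of 24 targets whose groups did not overlap, against 3.01% of all genes. Leaving out Scr2 replicates 1 and 4, the median was 1.08 and 8 targets were higher at an unadjusted p under 0.05. For siRNA 1, 19 of 24 were above 0, against 49.5% of all genes, with a median of 0.29. There 3 were higher and 0 lower at that p, against 3.48% of all genes in either direction: BNIP3L, a mitophagy receptor, at 0.95 ± 0.34, MXI1, a MAX partner that opposes MYC, at 1.09 ± 0.39, and P4HA1, a collagen prolyl hydroxylase, at 0.67 ± 0.28 (SE).

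Of the hypoxia-inducible factors and their regulators, EPAS1 (HIF-2 alpha) was 157 to 281 CPM in the libraries labelled Myc2 and 55.6 to 139 CPM in Scr2. It was the 1 of 8 genes of this list whose groups did not overlap, against 3.01% of all genes. The difference of 1.20 ± 0.27 (SE) had an exact permutation p of 0.00794, the smallest this design allows, beside a limma adjusted p of 0.370. EPAS1 had the highest r with VEGFA among the 8 genes of this list, at 0.70 in the first table and 0.91 in the second. The median r of the list was 0.12 in the first table, with 4 of 8 above 0, and 0.58 in the second, with 7 of 8 above 0. HIF1A was at -0.0912 and 0.51, and the lowest were ARNT2, a HIF partner subunit, at -0.51 in the first table and EGLN2 at -0.67 in the second. HIF1A differed by 0.53 ± 0.26 and VHL, which marks the factors for degradation, by 0.54 ± 0.23 (SE), and without Scr2 replicates 1 and 4 by 0.15 and 0.10. Over the list, 7 of 8 were above 0 with a median of 0.39 (EPAS1 and VHL higher and 0 lower at an unadjusted limma p under 0.05), and without those 2 libraries 4 of 8 with a median of 0.02. For siRNA 1, 4 of 8 were above 0 with a median of 0.06. EGLN2, an oxygen-sensing prolyl hydroxylase, was the 1 gene lower at that p, at -0.48 ± 0.22, with 0 higher. EGLN1 differed by 0.45 ± 0.24 and VHL by -0.51 ± 0.27 (SE). Leaving out Scr1 replicate 3, 3 of 8 were above 0 with a median of -0.10, and 0 were lower at that p.

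Genes that act on VEGFA transcription, splicing or mRNA decay gave 11 of 13 above 0 for siRNA 2, with a median of 0.15, and 4 of 13 for siRNA 1, with a median of -0.08. At an unadjusted limma p under 0.05, 3 were higher and 0 lower for siRNA 2, and 0 either way for siRNA 1. ZFP36L1, which promotes decay of VEGFA mRNA, was 278 to 384 CPM in the libraries labelled Myc2 and 83.2 to 238 CPM in Scr2 (1.03 ± 0.28 SE). STAT3, a transcription factor, differed by 0.59 ± 0.17 and SRSF6, a splicing factor, by 0.56 ± 0.22 (SE). These 3 differed, without Scr2 replicates 1 and 4, by 0.46, 0.36 and 0.27. For siRNA 1 the smallest p values belonged to SRSF6 (0.43 ± 0.24 SE), PTBP1 (-0.34 ± 0.26 SE) and SRSF2 (-0.27 ± 0.22 SE).

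The plexins and class 3 semaphorins, which share the neuropilins with VEGF, had 6 of 10 tested above 0 for siRNA 2 with a median of 0.42. At an unadjusted limma p under 0.05, 2 were higher and 0 lower: PLXNA3 at 1.63 ± 0.56 and PLXNA1 at 0.98 ± 0.40 (SE). Without Scr2 replicates 1 and 4 they differed by 0.43 and 0.15, and the median over 11 tested was -0.05. PLXNA4 differed by 0.97 ± 0.52 (SE) in that experiment. For siRNA 1, 4 of 10 were above 0 with a median of -0.11, and PLXNA4 at 1.31 ± 0.57 was the 1 gene higher at that p, with 0 lower. SEMA3E, a plexin D1 ligand, differed by 0.81 ± 0.44 and its receptor PLXND1 by -0.47 ± 0.22 (SE).

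Signal transducers downstream of KDR were tested for 29 genes in each experiment. For siRNA 2, 17 were above 0 with a median of 0.07, and 2 were higher and 0 lower at an unadjusted limma p under 0.05, no larger a share than the 13.4% of all genes. The 2 higher genes were PTGS2, the inducible cyclooxygenase, at 2.01 ± 0.66, and PRKCA, a protein kinase C, at 0.61 ± 0.27. They were followed by the focal adhesion kinase PTK2 at 0.41 ± 0.19 (SE). Leaving out Scr2 replicates 1 and 4, 13 were above 0 with a median of -0.00555, and 1 was higher and 1 lower at that p. PTGS2 then differed by 2.56 and PRKCA by 0.21. For siRNA 1, 10 were above 0 with a median of -0.10, and 0 were higher and 1 lower. That gene was SPHK1, a sphingosine kinase, at -0.94 ± 0.32, beside PIK3R1, a regulatory subunit of PI3-kinase, at 0.59 ± 0.32 (SE), which was 0.30 without Scr1 replicate 3.

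Other angiogenic factors gave 12 of 15 above 0 for siRNA 2 with a median of 0.66, with 5 higher and 1 lower at an unadjusted limma p under 0.05. TGFA, an EGFR ligand, was 12.9 to 40.8 CPM in the libraries labelled Myc2 and 6.05 to 14.6 CPM in Scr2 (1.31 ± 0.35 SE). ADM, adrenomedullin, differed by 1.68 ± 0.58 and EFNB2, ephrin B2, by 0.89 ± 0.32 (SE). The other 2 higher genes were IL8, a neutrophil chemokine, at 2.78 ± 1.13 and CYR61, a matricellular protein, at 0.78 ± 0.29, and the lower gene was FGF1, a fibroblast growth factor, at -0.58 ± 0.23 (SE). Without Scr2 replicates 1 and 4, 2 were higher and 0 lower and the median was 0.57. ADM and ANGPTL4 are in this list and among the hypoxia targets. For siRNA 1, 9 of 16 were above 0 with a median of 0.07, and 2 were higher and 0 lower. These were ANGPT2, an endothelial TIE2 ligand, at 1.13 ± 0.48 and TGFA at 0.95 ± 0.42, beside FGF1 at -0.43 ± 0.24 (SE). Leaving out Scr1 replicate 3, 1 was higher and 0 lower.

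Inhibitors of angiogenesis gave 6 of 7 above 0 in both experiments, with medians of 0.31 for siRNA 1 and 0.23 for siRNA 2. SERPINF1, pigment epithelium-derived factor, was 15.6 to 62.9 CPM in Myc1 and 10.1 to 14.0 CPM in Scr1. It was the 1 of 7 inhibitors tested there whose groups did not overlap, against 4.21% of all genes. Its difference was 1.32 ± 0.39 (SE), with an exact permutation p of 0.0286, the smallest possible, and a limma adjusted p of 0.996. THBS2, a thrombospondin, differed there by 0.44 ± 0.33 and SPARC, a matricellular protein, by 0.31 ± 0.21 (SE), and THBS2 by 0.74 without Scr1 replicate 3. For siRNA 2, THBS1, thrombospondin 1, differed by 1.35 ± 0.78, DCN, decorin, by -1.15 ± 0.73 and VASH1, vasohibin, by 0.39 ± 0.35 (SE). At an unadjusted limma p under 0.05, 1 inhibitor was higher for siRNA 1 and 0 for siRNA 2, and 0 were lower in both. For siRNA 2 without Scr2 replicates 1 and 4, 4 of 8 were above 0 with a median of 0.08, and VASH1 turned to -0.0993.

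Genes whose pattern over tumours was most like that of a VEGF gene were ranked by the lower of the Pearson r in the 2 tables (7 and 9 tumours, 13655 genes). For VEGFA these were SYNPO, an actin-binding protein, at 0.87 and 0.95, ITPR1, an inositol trisphosphate receptor, at 0.87 and 0.86, EGR2, a zinc finger transcription factor, at 0.85 and 0.86, C11orf89 at 0.84 and 0.86, and SH3PXD2A, a podosome scaffold, at 0.84 and 0.92. The first number is that of the first table. For NRP1 they were PJA2, a ubiquitin ligase, at 0.92 and 0.98 and PAK2, a kinase, at 0.92 and 0.94. PGF was nearest to ABCB9 (0.93 and 0.88) and PAK1 (0.76 and 0.82), and VEGFB to SPSB3 (0.84 and 0.85) and FTL, ferritin light chain (0.87 and 0.84). KDR was nearest to MIR600HG (0.83 and 0.86) and PODXL, podocalyxin (0.79 and 0.90). NRP2 was nearest to VMP1 (0.80 and 0.94) and FAM227A (0.77 and 0.78), and VEGFC to DET1 (0.80 and 0.75) and PAQR5 (0.79 and 0.70). These are the highest of 13655 values over few tumours, and they describe likeness only.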

How the data were processed

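RNA of 16 tumours with an integrity score of at least 7.2, per the labels' protocols, was sequenced. The submitters' processing notes name Picard, STAR 2.6.0b and bcl2fastq 2.20.0, with builds hg19 and mm10 without their roles. For the counting tool, the annotation and the handling of mouse reads, the entry is: not given in the sources used here. Values came as tables in which the authors deposited log2 values, 1 for each experiment. Taken back from log2 they sum to between 995054 and 998392 per sample and share 1 distribution within a table, so they were read as quantile-normalized log2 CPM, in which a shift of most genes at once cannot be seen. Depth was estimated from the spacing of the lowest values (steps 2 to 20), and reads of low genes from the order of their distinct values. Depth estimates are less certain for Scr2 replicates 1 and 4, and also for replicates 3 and 4 labelled Myc2. The slope of that spacing, 1 if exact, was 0.908 and 0.876 in the former and 1.19 and 1.15 in the latter.

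Genes with at least 1 CPM in 3 samples (siRNA 1) or 4 samples (siRNA 2) were fitted with limma 3.58.1 in R 4.3.3 (trend and robust empirical Bayes) and adjusted by Benjamini-Hochberg over all genes, with a threshold of 0.05. The fits were tested on simulated data. Exact two-sided permutation used 35 and 126 arrangements, with smallest p of 0.0286 and 0.00794. All p-values measure the spread between mice of these experiments. Replicates were numbered in accession order, and the number names a tumour only. Alternatives changed the pseudocount (1 or 0.1), the filter (none or 5 CPM), the empirical Bayes settings, the scaling (9 reference genes), sample weights, the samples in the fit and each tumour in turn.

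Genes other than the VEGF genes were named as the 3 of each list with the smallest limma p in each comparison, and as those most like a VEGF gene across tumours (5 for VEGFA, 2 for each other). ERG, IL8, CYR61, PFKFB4, ARNT2 and, for siRNA 2, FGF1 were named after their values were seen. A gene that the rule selects is not reported here. The members, lists and libraries left out were chosen with earlier results of these data known.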

Additional observations from a re-analysis of the deposited data

Results flagged for a closer look

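VEGFA is listed because the difference between its effects in the 2 experiments had an exact permutation p under 0.05. That permutation shuffles labels within each table, so it assumes no effect in either experiment rather than equal effects. The siRNA and the experiment cannot be told apart. The effect in the second experiment was 2.87 log2 larger than in the first, with an exact permutation p of 0.0254 over 4410 arrangements. It was the smallest of 7 such tests, and the limma p adjusted over all 13656 genes was 0.528. MYC, whose level went against the label in the second experiment, differed between the effects by 1.40 (exact permutation p = 0.0580).

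KDR in replicate 1 labelled Myc2 lay apart from its group, at -0.17 log2 CPM, below the other 4 tumours. Its gap to the nearest of them was 0.723 of the range of the group, above Dixon's 95% critical value for 5 samples. It rests on an estimated 16 reads. Of the 21 sets of 4 or 5 tumours tested in this way, 1 was marked, and chance marks about 1 in 20.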

How the results depend on the processing

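Over 358 recomputed differences of the VEGF genes, 334 kept their sign, 24 took the other sign and 1 newly passed the threshold. That 1 was VEGFA for siRNA 2, at 3.30 without replicate 3 labelled Myc2, where 9 genes in all and 1 VEGF gene were called. With each tumour left out, VEGFA for siRNA 2 ranged from 2.31 to 3.30, VEGFA for siRNA 1 from -0.52 to 0.19, and the difference between the effects from 2.37 to 3.37 (2.18 without both Scr2 replicates 1 and 4). VEGFA for siRNA 1 was 0.0450 with array weights. The number of genes called ranged from 0 to 2 for siRNA 1 and from 0 to 9 for siRNA 2, and of VEGF genes from 0 to 1 for siRNA 2. It was 1 for siRNA 1 with at least 5 CPM and 2 for siRNA 2 without both Scr2 replicates 1 and 4. Apart from the construction of each alternative, the cause was not tested.

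Most changes of sign came from small differences, but not all. With all tumours, KDR and NRP1 in siRNA 2 stood at 0.49 and 0.29. The difference between effects stood at 0.31 for NRP1 and -0.28 for PGF. With a tumour left out, siRNA 1 values ranged from -0.21 to 0.33 for VEGFB, -0.30 to 0.37 for PGF and -0.17 to 0.0988 for NRP1, and siRNA 2 values from -0.19 to 0.10 for VEGFC. The difference between effects ranged from -0.0625 to 0.48 for VEGFB and from -0.54 to 0.14 for PGF. Single settings gave 0.0191 (reference genes), 0.0834 (array weights) and 0.27 (without both Scr2 replicates 1 and 4) for VEGFC in siRNA 2, and 0.00651 (reference genes) for NRP1 in siRNA 1. Without both Scr2 replicates 1 and 4, KDR in siRNA 2 was -0.0495, NRP1 -0.23 and the NRP1 difference between effects -0.21. PGF and KDR gave no value at 5 CPM, and KDR none without Scr1 replicate 2, where the filter on low values removed it. No paired analysis was possible because the labels give no replicate numbers shared between groups. Depth limits KDR and PGF most.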
